A study of Homo sapiens with 12 samples.

Results

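The insulin-like growth factor (IGF) axis was read as 10 genes in LNCaP prostate cancer cells depleted of paxillin or not, with and without androgen. The genes were taken by symbol from a fixed list: the ligand IGF1, the receptors IGF1R and INSR, the receptor substrates IRS1 and IRS2, and the binding proteins IGFBP2, IGFBP3, IGFBP4, IGFBP5 and IGFBP6. All 10 are among the 36137 genes of the count table, and 8 had enough counts to be tested, out of 18468 tested genes in all. IGFBP4 and IGFBP6 did not pass the filter on low counts.

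LNCaP is an established androgen-sensitive line derived from a lymph node metastasis of prostate cancer. Each of the 4 groups held 3 libraries of poly(A) RNA, made after a 48 h transfection with either PXN siRNA or non-specific siRNA. PXN encodes paxillin, an adaptor protein of focal adhesions. All groups were serum-starved for 12 h and then received 2.5 nM dihydrotestosterone (DHT, a natural androgen) or ethanol as its vehicle, for 24 h. All groups were therefore kept without serum, the usual source of IGFs in culture, before the treatment, and none was left untransfected. Whether serum was present during the 24 h of treatment is not stated here. Nothing in the labels says whether the 3 libraries of a group came from separate cultures, so the p-values below describe the spread between these libraries, and that spread may be technical.

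IGFs bind the receptor tyrosine kinase IGF1R, and insulin binds its close relative INSR. Both receptors phosphorylate the docking proteins IRS1 and IRS2, which recruit PI3K and so activate AKT and mTOR and keep FOXO transcription factors out of the nucleus. The IGFBPs are secreted proteins that hold IGFs in the extracellular space, and proteases such as the kallikreins can cleave them and free the ligand. In prostate cancer cells the axis is known as a survival and growth pathway that is tied to androgen signalling.

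Library totals were 34321000 to 38633456 counts. Values are given as CPM, counts scaled to a common library size, or as raw counts where a gene had few. PXN was at 112, 106 and 108 CPM with non-specific siRNA and vehicle (replicates 1 to 3) and at 15.2, 21.2 and 14.9 CPM with PXN siRNA and vehicle. Under DHT, PXN was at 113, 99.7 and 104 CPM against 20.0, 18.1 and 16.6 CPM. The siRNA labels therefore held in every library. All 7 luminal prostate markers looked for were present in every library, among them FOLH1 (1112 to 1720 CPM) and KRT8 (414 to 546 CPM). Of 12 markers of other cells in the table (basal, stromal, endothelial and leukocyte), 7 were under 1 CPM in each group. KRT5 was at 0 in the non-specific siRNA libraries with DHT and TP63 was at 0 in the PXN siRNA libraries with vehicle. The endothelial marker VWF had means of 14.0 CPM (vehicle) and 16.8 CPM (DHT) with non-specific siRNA. With PXN siRNA its means were 17.1 and 20.4 CPM, while PECAM1, also endothelial, was under 1 CPM in all groups. The summed level of the 12 markers was 46.7 to 59.5 CPM with non-specific siRNA and 85.7 to 101 CPM with PXN siRNA, but the stromal markers did not move together. Under vehicle VIM rose with PXN siRNA from 4.89 ± 1.35 to 31.6 ± 8.26 CPM (SD, n = 3). COL1A1 rose from 20.5 ± 1.82 to 30.4 ± 2.07 CPM and TAGLN from 5.60 ± 1.83 to 8.26 ± 1.02 CPM. COL3A1 fell from 6.86 ± 1.09 to 3.94 ± 0.684 CPM, and LUM fell by 2.22 on the log2 scale from a level under 1 CPM. Mitochondrially encoded transcripts made up 8.13 to 8.95% of the 6 PXN siRNA libraries and 4.69 to 7.55% of the other 6. The part of these shifts in the results below was not tested. In bulk RNA, fewer cells of a type and less RNA per cell cannot be told apart.

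The promoters of 4 members are shown: IGF1R, which rose with DHT, and INSR, IRS1 and IGFBP2, which changed with PXN siRNA in both treatments. IGFBP3 also changed in both treatments, and its promoter is described below but not shown. Each promoter is the 250 bases before a start site in RefSeq (GRCh38.p14), 5′ to 3′ on the gene's strand. Capitals mark matches on either strand to GGGCGG (the GC box, bound by SP1-type factors) or to AGAACA (the core hexamer of androgen response elements). They lie at chr15:98648289-98648538 on the plus strand for IGF1R, chr19:7294415-7294664 on the minus strand for INSR, chr2:226799821-226800070 on the minus strand for IRS1 and chr2:216632578-216632827 on the plus strand for IGFBP2.
IGF1R: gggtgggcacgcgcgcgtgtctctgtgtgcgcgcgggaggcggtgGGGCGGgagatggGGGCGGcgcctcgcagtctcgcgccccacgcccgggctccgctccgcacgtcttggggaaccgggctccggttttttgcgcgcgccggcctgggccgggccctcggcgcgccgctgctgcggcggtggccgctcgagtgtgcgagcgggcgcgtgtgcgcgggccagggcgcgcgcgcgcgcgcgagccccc
INSR: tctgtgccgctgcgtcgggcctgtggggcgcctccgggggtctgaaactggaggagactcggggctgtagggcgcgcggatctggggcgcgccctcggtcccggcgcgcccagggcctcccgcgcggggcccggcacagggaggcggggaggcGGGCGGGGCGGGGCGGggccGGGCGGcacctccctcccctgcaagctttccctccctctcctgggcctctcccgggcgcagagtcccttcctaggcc
IRS1: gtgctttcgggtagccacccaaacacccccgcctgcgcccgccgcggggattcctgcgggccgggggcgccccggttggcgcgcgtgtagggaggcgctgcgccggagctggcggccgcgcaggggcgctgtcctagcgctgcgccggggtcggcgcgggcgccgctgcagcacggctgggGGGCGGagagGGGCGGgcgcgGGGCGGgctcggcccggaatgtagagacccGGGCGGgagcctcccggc
IGFBP2: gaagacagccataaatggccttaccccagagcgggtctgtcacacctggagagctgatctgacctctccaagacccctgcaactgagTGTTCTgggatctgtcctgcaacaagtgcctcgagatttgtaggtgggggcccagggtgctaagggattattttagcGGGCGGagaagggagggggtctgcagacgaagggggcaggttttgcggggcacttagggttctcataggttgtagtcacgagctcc

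The windows of IGF1R, INSR and IRS1 were rich in GC, at 81.2%, 78.4% and 80.8%, where the median of all 35114 RefSeq windows of this length was 58.0%. The IGFBP2 window shown, at 56.8%, was close to that median. It is 1 of 3 RefSeq windows of IGFBP2, and those not shown were at 69.2% and 56.4%. The IGF1R window held 2 GC boxes, 205 and 192 bases before the start, and the INSR and IRS1 windows held 4 each. Those of INSR follow each other between 97 and 77 bases before the start, and 3 of them overlap. The IGFBP3 window, not shown, was at 76% GC and held 2 GC boxes. The GC box was found in 42.6% of all single windows. Of the 10 members, 8 had a match in any of their windows, a wider measure for genes with more than 1 window. The androgen hexamer stood 163 bases before the start in IGFBP2, in capitals as TGTTCT because it lies on the other strand. The IGFBP2 window at 56.4% GC held the hexamer 246 bases before its start, and that at 69.2% held none. The hexamer was found in 12.4% of all windows, and IGFBP2 was the only member with a match among the windows searched. TGTTTAC, a motif of FOXO factors, was found in 2.98% of all windows, in 1 of the 2 windows of IGF1 and in the window of IGFBP6. These matches describe letters in a window, and no binding was measured.

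Under vehicle, PXN siRNA went with more mRNA for the substrate IRS1 (3.23-fold), the binding protein IGFBP3 (2.65-fold) and the substrate IRS2 (1.58-fold), and with less for IGFBP2 (1.54-fold) and INSR (1.21-fold). IGF1R, IGF1 and IGFBP5 did not pass the test. So 5 of 8 tested members were called, 3 higher and 2 lower, at an adjusted p under 0.05 (edgeR quasi-likelihood test on all genes, Benjamini-Hochberg), where 50.2% of all tested genes were called, 23.9% higher and 26.3% lower. The count of members is thus near the background of a contrast in which about every other gene moved. The groups did not overlap for the same 5 members, and for 56.9% of all tested genes. The median log2 fold change of the members was 0.05 and that of all tested genes 0.02. Upper-quartile scaling moved the latter to 0.12 and put 60.2% of all calls higher, against 47.7% in the values given here.

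Under DHT, PXN siRNA again went with more IRS1 (2.86-fold) and IGFBP3 (2.21-fold) and less IGFBP2 (1.63-fold) and INSR (1.32-fold), and here IGF1R was 2.22-fold lower as well. IRS2 did not pass. These are 5 of 8 tested members, 2 higher and 3 lower, where 51.8% of all tested genes were called, 25.0% higher and 26.7% lower. The members' median was -0.06 and that of all tested genes 0.03, or 0.13 with upper-quartile scaling, which put 60.7% of calls higher in place of 48.3%. The groups did not overlap for those 5 members and for 59.9% of all tested genes.

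**Figure D1:**
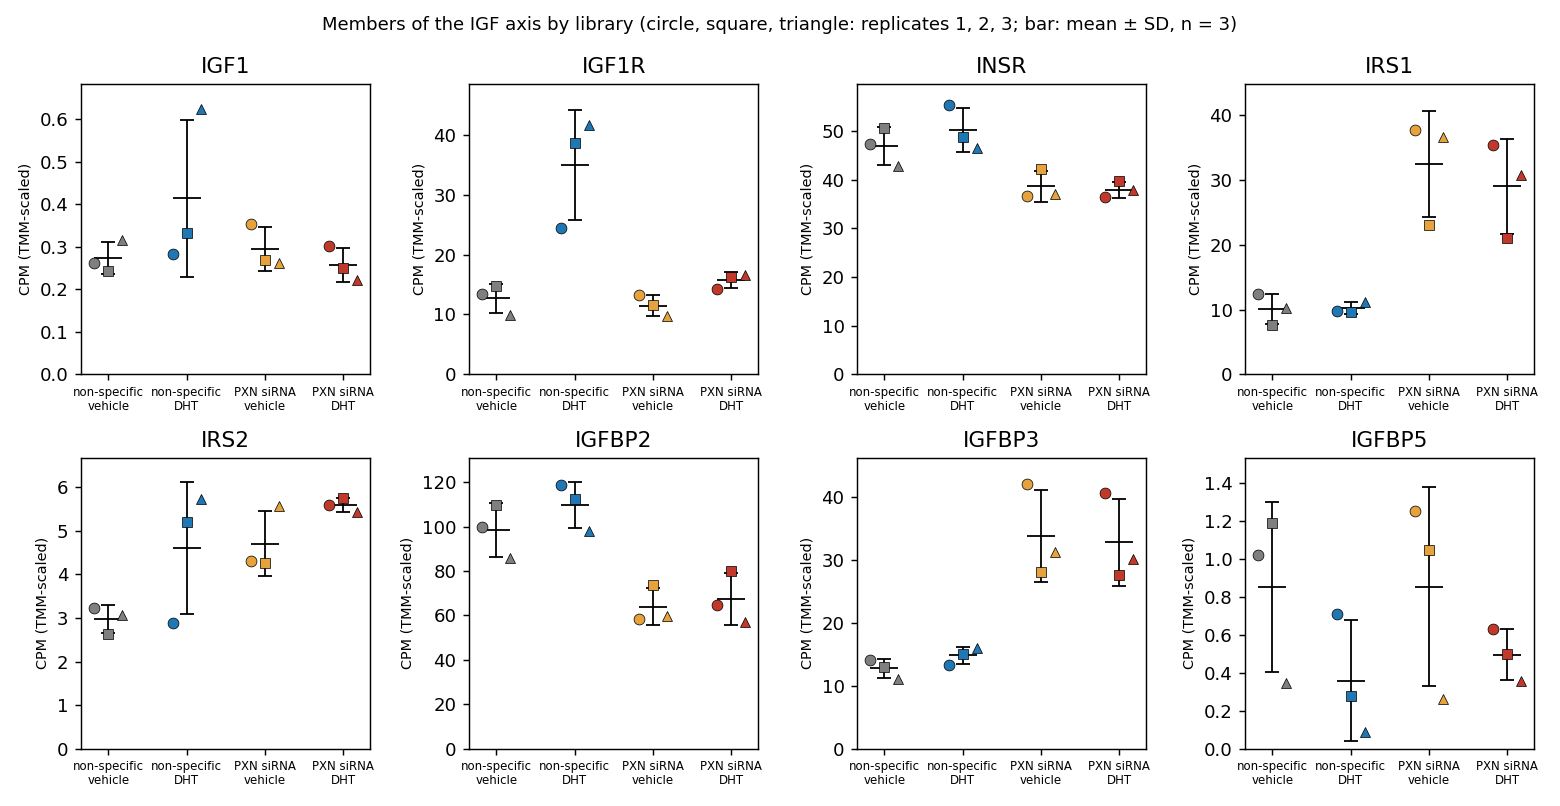
CPM (scaled library size, vertical axis from 0) of the 8 tested members in each of the 12 libraries, by group on the horizontal axis. Symbols are replicates 1 to 3, horizontal marks are means and bars are SD (n = 3). IRS1 and IGFBP3 lie higher, and IGFBP2 and INSR lower, in all 6 PXN siRNA libraries than in the other 6, and IGF1R is highest in the 3 libraries with non-specific siRNA and DHT.

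DHT with non-specific siRNA went with 2.75-fold more IGF1R, the only member called of 8, where 4.87% of all tested genes were called, 2.72% higher and 2.16% lower. It was also the only member whose groups did not overlap there, as 20.3% of all tested genes did not. With the replicate number as a block, 3 members were called, with IRS2 higher and IGFBP5 lower besides IGF1R, and the count of all genes went from 900 to 2236. DHT with PXN siRNA called none of the 8 members, where 0.184% of all tested genes were called, 34 genes, all higher. IGF1R had an unadjusted p of 0.0274 there and no overlap between groups, which 13.6% of all tested genes also showed. The test of the difference between the DHT responses with and without PXN siRNA called 0 genes in edgeR, with 4.21% of all tested genes at an unadjusted p under 0.05. It called 30 genes in DESeq2 and 58 with the replicate block.

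IGF1, the ligand, was close to the detection limit. It had 9, 9 and 11 counts with non-specific siRNA and vehicle, 10, 12 and 21 with DHT, 13, 10 and 10 with PXN siRNA and vehicle, and 11, 9 and 8 with PXN siRNA and DHT. The libraries of all groups overlapped except for 1 library at 21 counts, non-specific siRNA with DHT replicate 3. The log2 fold changes were 0.10 ± 0.37 (SE) for PXN siRNA under vehicle, -0.67 ± 0.36 under DHT, 0.58 ± 0.36 for DHT with non-specific siRNA and -0.19 ± 0.37 for DHT with PXN siRNA. None passed (edgeR, adjusted p = 0.832, 0.132, 0.466 and 0.958). IGF1 lies at chr12:102395874-102481744, overlapped by 2 RNA genes on the other strand, and whether counting used strand is a point not given in the sources used here. At this depth only large changes of IGF1 could be seen, and the interval for PXN siRNA under vehicle ran from -0.75 to 0.96.

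IGF1R, the receptor for IGFs, was the member called for DHT. It was at 13.5, 14.7 and 9.98 CPM with non-specific siRNA and vehicle and at 24.5, 38.7 and 41.7 CPM with DHT. With PXN siRNA it was at 13.2, 11.5 and 9.70 CPM under vehicle and at 14.3, 16.3 and 16.7 CPM under DHT. All 3 DHT libraries lay above all 3 vehicle libraries within each siRNA, and the 3 libraries with non-specific siRNA and DHT lay above the other 9. Among those 3, replicate 1 was lowest, and it was also the lowest of the 3 for IRS2 and the highest for STC1 (154 counts against 14 and 22).

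The DHT response of IGF1R was a log2 fold change of 1.46 ± 0.18 (SE) with non-specific siRNA (edgeR, Benjamini-Hochberg adjusted p = 0.000313) and 0.45 ± 0.19 with PXN siRNA (adjusted p = 0.594). The difference between these responses was -1.003 ± 0.26 (unadjusted p = 0.00161, rank 45 of 18468 genes), with an interval of -1.60 to -0.41, and it did not pass the correction over all genes (edgeR adjusted p = 0.645). It passed with no low-count filter (-1.01, adjusted p = 0.00948), in DESeq2's Wald test (-1.02, adjusted p = 0.0317) and without replicate 1 of non-specific siRNA with DHT (-1.20, edgeR adjusted p = 0.0180). It did not pass in limma-voom, with DESeq2 size factors, with upper-quartile scaling or with a filter at a mean of 1 CPM. Nor did it pass with the replicate number as a block or without any other single library. Over all alternatives the adjusted p ranged from 0.00948 to 1.00.

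With PXN siRNA, IGF1R differed by -0.15 ± 0.19 on the log2 scale under vehicle (edgeR adjusted p = 0.539, interval -0.58 to 0.28), where the libraries overlapped. Under DHT it fell by 1.15 ± 0.18 (edgeR adjusted p = 9.61e-05). These comparisons and those of DHT share libraries, so the low value under DHT and the smaller DHT response with PXN siRNA rest in part on the same 3 libraries. IGF1R lies at chr15:98648539-98964530 on the plus strand and overlaps 2 antisense genes, whose reads cannot be told apart without the strand setting.

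**Figure D2:**
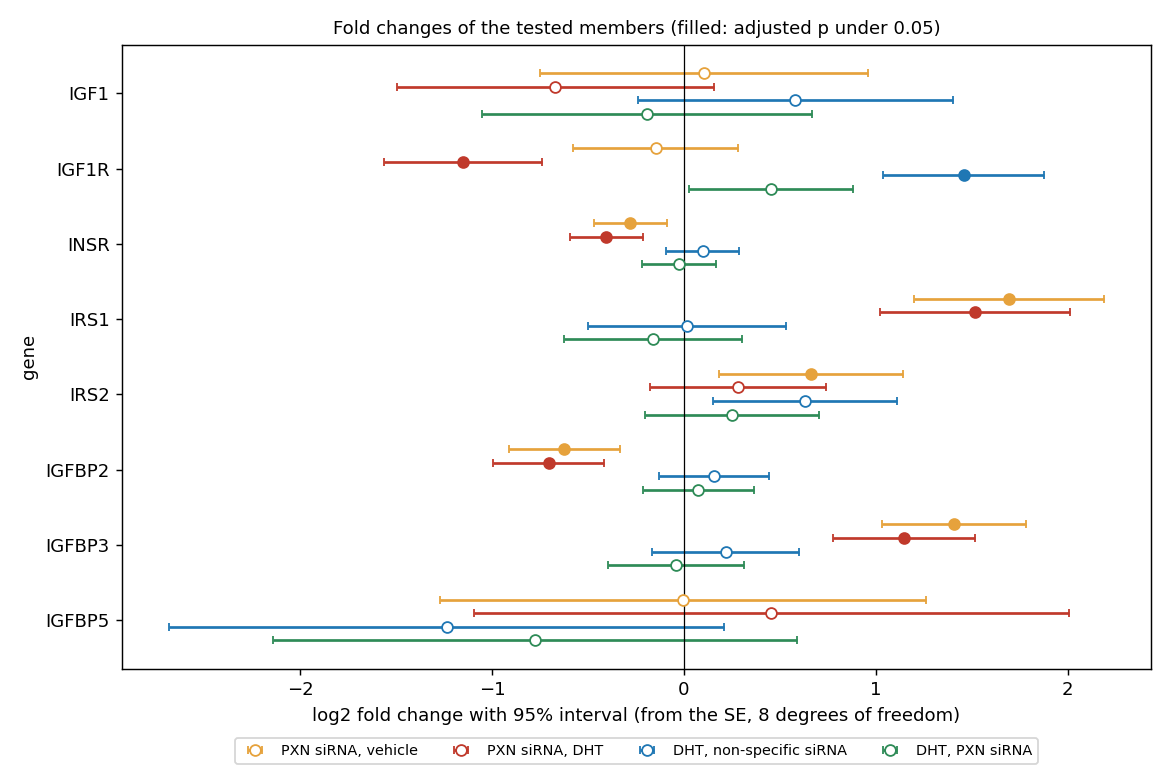
Log2 fold changes (horizontal axis) of the 8 tested members in 4 comparisons, with 95% intervals from the SE and 8 residual degrees of freedom. Filled points passed an adjusted p of 0.05, and the IGF1R points for DHT, 1.46 with non-specific siRNA and 0.45 with PXN siRNA, are the farthest apart of any member with CPM above 1.

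INSR, the insulin receptor, fell with PXN siRNA in both treatments. It was at 47.3, 50.6 and 42.8 CPM with non-specific siRNA and vehicle and at 36.6, 42.3 and 37.0 CPM with PXN siRNA and vehicle. Under DHT it was at 55.4, 48.7 and 46.5 CPM against 36.3, 39.6 and 37.9 CPM. The groups did not overlap, though under vehicle the gap was narrow. The fall was 0.28 ± 0.08 (SE) on the log2 scale under vehicle (edgeR adjusted p = 0.0116) and 0.40 ± 0.08 under DHT (adjusted p = 0.000918). With upper-quartile scaling the value under vehicle was -0.18 and missed the threshold (adjusted p = 0.0826). DHT gave 0.10 ± 0.08 with non-specific siRNA and -0.03 ± 0.08 with PXN siRNA, and neither passed (edgeR adjusted p = 0.637 and 0.977). INSR lies at chr19:7112255-7294034 on the minus strand with no overlapping gene in GENCODE 29.

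The share of the receptors within a library does not depend on the scaling. There were 3.51, 3.44 and 4.28 INSR counts per IGF1R count with non-specific siRNA and vehicle, and 2.26, 1.26 and 1.12 with DHT. With PXN siRNA there were 2.77, 3.66 and 3.81 under vehicle and 2.55, 2.43 and 2.27 under DHT. The balance moved toward IGF1R in each DHT group, without overlap. As a log2 ratio of IGF1R to INSR, DHT differed from vehicle by 0.91 over both siRNAs. The difference was 1.34 with non-specific siRNA and 0.49 with PXN siRNA. Exact permutation within each siRNA gave a two-sided p = 0.005 over both siRNAs. That is the smallest that 400 arrangements allow (adjusted p = 0.01 over 4 ratio tests). PXN siRNA differed from non-specific siRNA by -0.29 over both treatments (exact permutation p = 0.265, adjusted p = 0.265), with 0.14 under vehicle and -0.72 under DHT. Within a treatment or siRNA, 3 libraries against 3 cannot give a p below 0.1. The tests of DHT on the ratios were added after the values had been seen.

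**Figure D3:**
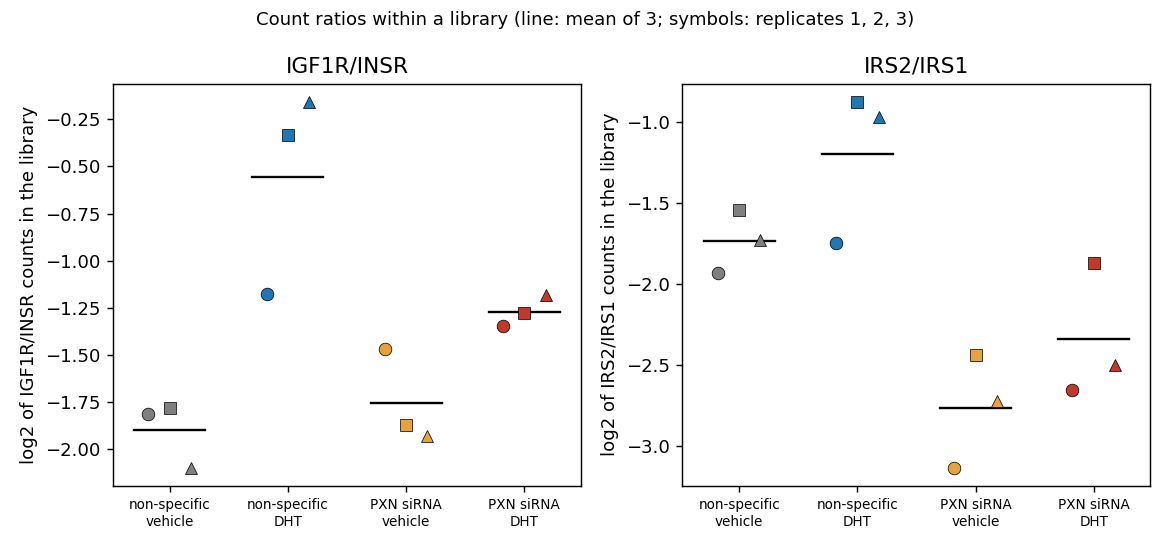
Log2 ratio of counts within each library (vertical axis) for IGF1R over INSR and IRS2 over IRS1, by group. Symbols are replicates 1 to 3 and lines are means of 3 libraries; the mean IGF1R to INSR ratio is -1.90 in non-specific siRNA with vehicle and -0.56 with DHT, and the mean IRS2 to IRS1 ratio is lower in both PXN siRNA groups (-2.77 and -2.34) than in the others (-1.74 and -1.20).

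IRS1, the docking protein that links both receptors to PI3K, showed the largest rise of the members. It was at 12.4, 7.65 and 10.2 CPM with non-specific siRNA and vehicle and at 37.8, 23.1 and 36.7 CPM with PXN siRNA and vehicle. Under DHT it was at 9.73, 9.55 and 11.2 CPM against 35.4, 21.1 and 30.8 CPM. Every PXN siRNA library lay above every library with non-specific siRNA, and replicate 2 was the lowest of its group in all 4 groups. IRS1 rose by 1.69 ± 0.21 (SE) on the log2 scale under vehicle and by 1.52 ± 0.21 under DHT (edgeR adjusted p = 1.64e-05 and 4.14e-05), and by 1.33 to 1.87 when any library was left out. DHT gave 0.02 ± 0.22 with non-specific siRNA and -0.16 ± 0.20 with PXN siRNA, and neither passed (edgeR adjusted p = 0.986 and 0.925). IRS1 lies at chr2:226731317-226799759 on the minus strand with no overlapping gene.

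IRS2, the second docking protein, was less abundant and moved less. It was at 3.24, 2.62 and 3.08 CPM with non-specific siRNA and vehicle, 2.89, 5.203 and 5.74 CPM with DHT, 4.31, 4.25 and 5.57 CPM with PXN siRNA and vehicle, and 5.61, 5.76 and 5.44 CPM with PXN siRNA and DHT. The vehicle libraries with non-specific siRNA lay below all PXN siRNA libraries, and replicate 1 with DHT lay among them. IRS2 rose with PXN siRNA under vehicle by 0.66 ± 0.21 (SE) on the log2 scale (edgeR adjusted p = 0.0156), a call that was lost without replicate 2 of non-specific siRNA with vehicle (0.55, adjusted p = 0.0645) or replicate 3 of PXN siRNA with vehicle (0.50, adjusted p = 0.0862). Under DHT the difference was 0.28 ± 0.20 (adjusted p = 0.251).

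DHT gave 0.63 ± 0.21 for IRS2 with non-specific siRNA (edgeR adjusted p = 0.116). That difference passed with the replicate number as a block (0.62, adjusted p = 0.0378), with no low-count filter (0.64, adjusted p = 0.0362), in DESeq2 (0.64, adjusted p = 0.0450) and without the low replicate 1 with DHT (0.88, adjusted p = 0.00239). With PXN siRNA it was 0.25 ± 0.20 (edgeR adjusted p = 0.876). IRS2 lies at chr13:109752698-109786568 on the minus strand and overlaps 1 antisense gene.

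Within a library, IRS1 counts exceeded IRS2 counts by 3.82, 2.92 and 3.32 times with non-specific siRNA and vehicle and by 3.36, 1.84 and 1.96 times with DHT. With PXN siRNA they exceeded them by 8.78, 5.43 and 6.59 times under vehicle and by 6.31, 3.65 and 5.65 times under DHT. In each treatment all 3 PXN siRNA libraries lay on the IRS1 side of the other 3. The log2 ratio of IRS2 to IRS1 was lower by 1.09 with PXN siRNA over both treatments (difference -1.09, exact permutation p = 0.005, two-sided, the smallest possible, adjusted p = 0.01), and the 2 differences were -1.03 under vehicle and -1.14 under DHT. For DHT the difference was 0.48 and did not pass (exact permutation p = 0.065, adjusted p = 0.0867). With libraries of the same replicate number paired, the ratio was higher with DHT in 6 of 6 pairs. An exact sign-flip test, added after the values had been seen, gave p = 0.03125 (adjusted p = 0.0417 over 4 ratio tests). That is the smallest p that 6 pairs allow. Since 6 pairs in the same direction always give it, it adds nothing to their count.

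IGFBP2, by length the most abundant binding protein here, fell with PXN siRNA. It was at 99.6, 110 and 86.0 CPM with non-specific siRNA and vehicle and at 58.5, 73.6 and 59.8 CPM with PXN siRNA and vehicle. Under DHT it was at 119, 112 and 98.2 CPM against 64.8, 80.0 and 57.2 CPM. The siRNA groups did not overlap, and replicate 2 was the highest of its group in both PXN siRNA groups. The fall was 0.62 ± 0.13 (SE) on the log2 scale under vehicle and 0.70 ± 0.13 under DHT (edgeR adjusted p = 0.000828 and 0.000287). DHT gave 0.16 ± 0.13 and 0.07 ± 0.13, and neither passed (edgeR adjusted p = 0.614 and 0.952). IGFBP2 lies at chr2:216632828-216664436 on the plus strand, next to IGFBP5 on the same chromosome.

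IGFBP3, the main IGF carrier of serum, which also acts on cells without IGF, rose with PXN siRNA. It was at 14.1, 13.0 and 11.05 CPM with non-specific siRNA and vehicle and at 42.0, 28.05 and 31.2 CPM with PXN siRNA and vehicle. Under DHT it was at 13.3, 15.1 and 15.99 CPM against 40.6, 27.5 and 30.1 CPM. The groups lay far apart, and as for IRS1 replicate 2 was the lowest in both PXN siRNA groups. The rise was 1.41 ± 0.16 (SE) on the log2 scale under vehicle and 1.15 ± 0.16 under DHT (edgeR adjusted p = 6.97e-06 and 3.75e-05). DHT gave 0.22 ± 0.17 with non-specific siRNA and -0.04 ± 0.15 with PXN siRNA, and neither passed (edgeR adjusted p = 0.596 and 0.980). IGFBP3 lies at chr7:45912245-45921874 on the minus strand with no overlapping gene.

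IGFBP5, a binding protein that attaches to extracellular matrix, was low and varied with the replicate number. It had 35, 44 and 12 counts with non-specific siRNA and vehicle, 25, 10 and 3 with DHT, 46, 39 and 10 with PXN siRNA and vehicle, and 23, 18 and 13 with PXN siRNA and DHT. Replicate 3 was the lowest of its group in all 4 groups, and in each replicate number of the non-specific siRNA the DHT library had fewer counts than the vehicle library. The DHT difference was -1.24 ± 0.63 (SE) on the log2 scale and did not pass (edgeR adjusted p = 0.350). It passed with the replicate number as a block (-1.28, edgeR adjusted p = 0.0269). Leaving out libraries moved it between -2.18 (without DHT replicate 1) and -0.79 (without DHT replicate 3), and it did not pass in any of these fits. Over all alternatives the adjusted p ranged from 0.0269 to 0.683 for IGFBP5. The other log2 differences were -0.78 ± 0.59 for DHT with PXN siRNA, -0.01 ± 0.55 for PXN siRNA under vehicle and 0.46 ± 0.67 under DHT. IGFBP5 (chr2:216672105-216695525, minus strand) overlaps 1 antisense gene.

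IGFBP4 and IGFBP6 were not tested. IGFBP4 had 9 counts in all 12 libraries together and IGFBP6 had 5, with 0 to 2 per library for each. A count of 0 allows up to 3 counts, or 0.0784 to 0.0892 CPM in these libraries, for counting error only, so neither gene was above that limit in any library. IGFBP4 lies at chr17:40443461-40457731 and IGFBP6 at chr12:53097436-53102345, both on the plus strand.

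Levels of different genes were compared per kilobase of exon. With non-specific siRNA and vehicle, IGFBP2 stood highest at 20.7 ± 2.51 CPM per kb (SD, n = 3), followed by INSR at 4.49 ± 0.376, IGFBP3 at 2.78 ± 0.339, IRS1 at 1.01 ± 0.237, IGF1R at 0.912 ± 0.176, IRS2 at 0.366 ± 0.0390, IGFBP5 at 0.132 ± 0.0694 and IGF1 at 0.0337 ± 0.00467 CPM per kb. IRS1 and IGF1R overlapped in range and did not differ beyond their spread, while the other neighbours did not overlap. With PXN siRNA and vehicle, IGFBP2 was at 13.4 ± 1.75 CPM per kb and IGFBP3 at 7.38 ± 1.60, above INSR at 3.70 ± 0.301. IRS1, at 3.27 ± 0.823 CPM per kb, then overlapped INSR in range. IGF1R reached 2.51 ± 0.659 CPM per kb with non-specific siRNA and DHT, and IGFBP3 was at 3.24 ± 0.298 there. The lengths are exon unions of GENCODE 29, which need not be the transcripts these cells make.

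Across the 12 libraries, the members fell into sets that varied together. Pearson's r of log2 CPM was 0.96 between IRS1 and IGFBP3 and 0.96 between INSR and IGFBP2, and it was -0.95 between IRS1 and IGFBP2 and -0.92 between IRS1 and INSR. IGF1R followed none of them as closely, with r of 0.56 to IGFBP2 and 0.52 to INSR. These values are descriptions over 12 libraries that share the siRNA groups, and in a data set where about every other gene moved with the siRNA many gene pairs are alike. Of 11079 genes averaging 5 CPM or more, those most like IGF1R were FAM105A (r = 0.97) and RAB3B, a small GTPase of secretory vesicles (0.96). Those most like IRS1 were ATP6V1G1, a subunit of the proton-pumping vacuolar ATPase, and NKIRAS1 (r = 0.996 and 0.994), and those most like IGFBP3 were CFLAR, an inhibitor of death receptor signalling, and TRIM22 (r = 0.993 and 0.989). For INSR they were G6PC3 and SCAMP2 (r = 0.986 and 0.983), and for IGFBP2 SDF4 and RER1, both encoding proteins of the early secretory pathway (r = 0.988 each).

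Around the members, 67 further genes of the pathway were listed, of which 66 are in the table and 55 were tested. Under vehicle 13 of the 55 rose with PXN siRNA and 17 fell, and under DHT 19 rose and 17 fell, with medians of -0.09 and -0.05 against 0.02 and 0.03 for all tested genes. With DHT 3 rose and 6 fell in non-specific siRNA, and 2 rose in PXN siRNA. Over all tested genes, PXN siRNA called 23.9% higher and 26.3% lower under vehicle, and 25.0% and 26.7% under DHT. DHT called 2.72% higher and 2.16% lower with non-specific siRNA, and 0.184% higher with PXN siRNA. The counts of listed genes describe the list and are to be read against these shares.

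Of the other ligands, receptors and binding proteins, 3 of 8 were tested. IGF2R, the receptor that clears IGF2 and carries lysosomal enzymes, fell from 1259 ± 147 to 754 ± 76.6 CPM (SD, n = 3) under vehicle with PXN siRNA and stood at 1369 ± 109 against 747 ± 53.9 CPM under DHT (log2 fold changes -0.74 and -0.87, both called). IGF2, the second ligand, was at 0.793 ± 0.295 against 0.636 ± 0.212 CPM under vehicle and was not called in any comparison. IGFALS, the acid-labile subunit of the serum IGF complex, was under 1 CPM in all groups. Its log2 difference of 0.87 under DHT passed (edgeR adjusted p = 0.0292), and missed the threshold without replicate 2 or 3 of non-specific siRNA with DHT (0.92 and 0.65), without replicate 1, 2 or 3 of PXN siRNA with DHT (0.87, 0.86 and 0.83), with no low-count filter (0.86) and in DESeq2 (0.88). INSRR, IGFBP1, IGFBP7 and IGFBPL1 did not pass the filter. Of the IGF2 mRNA binding proteins, IGF2BP3 was tested and fell with PXN siRNA by 0.88 ± 0.20 (SE) on the log2 scale under vehicle and by 0.56 ± 0.20 under DHT, the latter lost with upper-quartile scaling (-0.46), without replicate 1 or 3 of non-specific siRNA with DHT (-0.52 for each) and without replicate 2 or 3 of PXN siRNA with DHT (-0.54 and -0.45).

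Among proteases that cleave IGFBPs and the stanniocalcins that inhibit the pappalysins, 6 of 7 were tested, and 3 fell with PXN siRNA in each treatment. The share of all tested genes called lower was 26.3% under vehicle and 26.7% under DHT. KLK3, prostate-specific antigen, which cleaves IGFBP3, was at 649 ± 165 CPM (SD, n = 3) with non-specific siRNA and 140 ± 53.1 CPM with PXN siRNA under vehicle, and KLK2, a related kallikrein, at 52.3 ± 14.4 against 13.1 ± 7.42 CPM. Both also rose with DHT, KLK3 by 1.78 ± 0.23 (SE) and KLK2 by 2.79 ± 0.35 on the log2 scale with non-specific siRNA, and by 2.06 ± 0.23 and 3.09 ± 0.37 with PXN siRNA. STC2, stanniocalcin 2, fell with PXN siRNA by 0.47 ± 0.09 in each treatment. HTRA1, a serine protease, was at 2.51 ± 0.276 against 2.10 ± 0.317 CPM under vehicle and was not called.

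**Figure D4:**
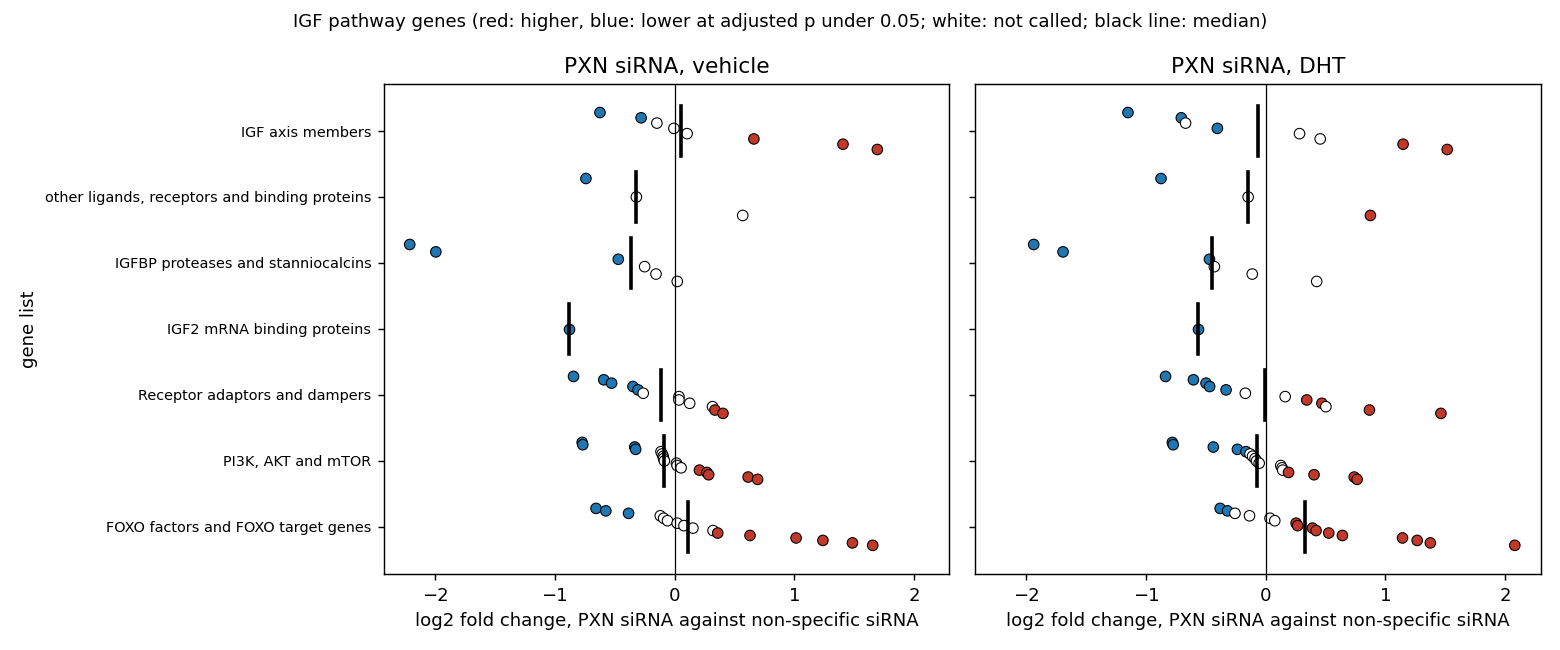
Log2 fold changes (horizontal axis) for PXN siRNA under vehicle and under DHT, 1 point for each tested gene of the members and of 6 pathway lists. Red points were higher and blue points lower at an adjusted p of 0.05, white points were not called, and black lines are list medians. The members spread to both sides, as the PI3K and adaptor lists do.

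Adaptors and dampers of the receptors went both ways, 2 higher and 5 lower of 12 under vehicle and 4 higher and 5 lower under DHT. The shares over all tested genes were 23.9% higher and 26.3% lower under vehicle, and 25.0% and 26.7% under DHT. PTPN11, the phosphatase SHP2, fell from 272 ± 21.4 to 180 ± 9.99 CPM (SD, n = 3) under vehicle, and GRB2, the adaptor to RAS, from 179 ± 11.3 to 124 ± 5.13 CPM. PTPN1, a phosphatase that switches both receptors off, fell by 0.35 ± 0.07 (SE) on the log2 scale under vehicle and by 0.47 ± 0.07 under DHT. GAB1, a docking protein, rose by 0.40 ± 0.10 and 0.87 ± 0.10. GAB1 and GRB10, an inhibitory adaptor of both receptors, fell with DHT in non-specific siRNA by 0.61 ± 0.10 and 0.68 ± 0.11, and DHT with PXN siRNA gave -0.15 and -0.25, not called.

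In the PI3K, AKT and mTOR list, 5 of 17 tested genes rose and 4 fell under vehicle, and 4 rose and 5 fell under DHT. Here too the shares over all tested genes were 23.9% higher and 26.3% lower under vehicle, and 25.0% and 26.7% under DHT. The regulatory subunits PIK3R1 and PIK3R3, which bind phosphorylated IRS1, rose with PXN siRNA under vehicle, PIK3R1 from 193.5 ± 18.03 to 313 ± 23.5 CPM and PIK3R3 from 391.96 ± 38.7 to 600 ± 61.9 CPM (SD, n = 3). PDPK1, the kinase that activates AKT, fell from 60.6 ± 1.57 to 35.6 ± 3.15 CPM, and RPS6KB1, the S6 kinase, from 55.8 ± 3.98 to 32.7 ± 1.97 CPM. MTOR rose with DHT in non-specific siRNA by 0.47 ± 0.10 (SE) on the log2 scale, a call lost without DHT replicate 2 or 3 (0.43 and 0.39). PIK3CD fell with DHT by 0.26 ± 0.06, a call lost when only these groups were fitted (-0.25), without vehicle replicate 1, 2 or 3 (-0.26, -0.22 and -0.27) and without DHT replicate 2 or 3 (-0.23 and -0.24).

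Of 16 tested FOXO factors and genes known as FOXO targets, 6 rose and 3 fell with PXN siRNA under vehicle. Under DHT 10 rose and 2 fell. The shares over all tested genes were 23.9% higher and 26.3% lower under vehicle, and 25.0% and 26.7% under DHT. The list medians were 0.12 and 0.33 against 0.02 and 0.03 for all tested genes. FBXO32, a ubiquitin ligase known as atrogin-1, rose from 12.0 ± 0.785 to 37.9 ± 6.15 CPM (SD, n = 3) under vehicle. PIK3IP1, an inhibitor of PI3K, rose from 42.5 ± 8.15 to 100 ± 13.3 CPM and GADD45A, a growth arrest gene, from 14.1 ± 1.10 to 28.5 ± 6.33 CPM. BCL6, a transcriptional repressor, fell from 75.6 ± 5.22 to 48.0 ± 0.997 CPM. With DHT in non-specific siRNA 3 of the 16 fell, where 2.16% of all tested genes were called lower. Among the 3, SESN1, a sestrin that restrains mTOR, fell by 0.59 ± 0.10 (SE) on the log2 scale and FOXO3 by 0.40 ± 0.09. The FOXO3 call was lost when only these groups were fitted (-0.39), without vehicle replicate 1 or 3 (-0.31 and -0.41) and without DHT replicate 2 or 3 (-0.32 and -0.37). PDK4, TRIM63 and PCK1 did not pass the filter on low counts.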

How the data were processed

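Per the labels, RNA was isolated with the RNeasy Plus Mini kit, and the library kit was TruSeq Stranded mRNA. The authors deposited raw gene counts as whole numbers. The submitters' processing notes name Trimmomatic 0.32, STAR 2.4.2a, Subread 1.5.0p3, featureCounts and GRCh38. Strand setting, annotation and handling of multiply mapped reads: not given in the sources used here.

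Counts of all 12 libraries were fitted in 1 edgeR 4.0.16 quasi-likelihood model with 4 group means (R 4.3.3, TMM scaling, filterByExpr, 18468 genes kept). P-values were adjusted by Benjamini-Hochberg over all tested genes, and a gene was called under 0.05. The SE is the log2 fold change divided by the square root of F, and 95% intervals use it with 8 degrees of freedom. The script was tested on simulated data. All replicate pairs differed by more than sampling noise. Ratios of counts were tested by exact permutation within treatment or siRNA. Alternatives were DESeq2 1.42.0 (test and size factors), limma-voom (limma 3.58.1), upper-quartile scaling, other filters, fits of the groups compared, a replicate block and leaving out each library.

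Members, lists and alternatives were chosen with earlier results of these data known. Named pathway genes are, per list, up to 4 ranked by p for PXN siRNA and up to 2 for DHT, with any list gene named for being at or near 0. STC1, VIM, COL1A1, TAGLN, COL3A1, LUM, VWF and PECAM1 were named after their values were seen. Same-numbered libraries deviated together, with r of 0.121 to 0.210 for PXN siRNA under vehicle. For DHT r was 0.145 to 0.383 with non-specific siRNA and 0.100 to 0.307 with PXN siRNA. All of these lay over the limit of 0.1. The main fit held no replicate term, so its SEs, p-values and calls leave this pairing out. The numbers were taken as pairs only in the replicate block and the sign-flip tests. For PXN siRNA under DHT r was 0.0769 to 0.284. Promoters came from RefSeq windows (GRCh38.p14), matched by symbol for all 10 members, and gene positions from GENCODE 29. Protein sequences were not analysed here.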

Additional observations from a re-analysis of the deposited data

How the results depend on the processing

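Calls of PXN siRNA in both treatments held for IRS1, IGFBP3 and IGFBP2 under every alternative run, and the exceptions for INSR and IRS2 stand beside their values. Counts for DHT were less stable. With non-specific siRNA, 900 genes were called, 2236 with the replicate block and 416 to 1361 without each library in turn. Of the members 1 was called, 2 with no low-count filter or in DESeq2, 3 with the block and 1 to 2 without each library. With PXN siRNA, 34 genes were called, 188 with no filter, 145 in DESeq2, 346 with the block, 18 in a fit of these groups alone and 10 to 80 without each library. The interaction called 0 genes, 1 with DESeq2 size factors, 35 with no filter, 30 in DESeq2, 58 with the block and 0 to 45 without each library. It called 0 members, 1 with no filter or in DESeq2 (IGF1R), and 0 to 1 without each library. Fitting only the groups compared was not run for the interaction, which uses them all. The replicate block changed no other call of a member than IRS2 and IGFBP5 for DHT. For the ratios its exact sign-flip test kept the calls but that of DHT on IRS2 to IRS1, given beside its value, and gave p = 0.03125 for PXN siRNA on that ratio. The cause of these changes was not tested.

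Uncalled differences near 0 changed sign without single libraries. For DHT with PXN siRNA the ranges were -0.057 to 0.041 for INSR, -0.36 to 0.027 for IRS1, -0.063 to 0.18 for IGFBP2 and -0.23 to 0.15 for IGFBP3. For DHT with non-specific siRNA IRS1 ranged from -0.15 to 0.19. Under DHT, PXN siRNA gave -0.27 to 0.041 for HTRA1 and -0.48 to 0.13 for IGF2. Depth limits IGF1, IGFBP4, IGFBP5 and IGFBP6.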
